A study of Homo sapiens with 9 samples.

Results

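Oncofetal genes are transcribed in the fetal liver, are silenced or much reduced in the adult organ, and are found again in many liver tumours. The 8 listed here are AFP, GPC3, DLK1, IGF2BP1, IGF2BP2, IGF2BP3, LIN28B and PEG10, named as a list and matched by symbol to the Ensembl identifiers of the count table. They are 8 of 19317 genes in the table and 8 of the 13636 genes that passed the filter on low counts, so no member was lost to the filter. AFP and GPC3 encode a secreted and a cell-surface protein that serve as tumour markers, and DLK1 encodes a membrane protein of hepatoblasts, the fetal liver progenitors. The IGF2BP proteins bind and stabilise mRNAs, among them m6A-methylated ones, and LIN28B blocks the maturation of the let-7 microRNAs. In turn, let-7 represses LIN28B and IGF2BP mRNAs in many cell types, and PEG10 is an imprinted gene derived from a retrotransposon.

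The cells were HepG2, an established line from a human liver tumour that the labels give as hepatocellular carcinoma, and total RNA was sequenced after depletion of ribosomal RNA with a stranded kit. Each of the 3 groups had 3 samples, and all were labelled wild type in genotype. WT samples were kept in RPMI medium. DNL samples, a model of de novo lipogenesis, spent 1 week in DMEM that held insulin at 10 µg/ml together with the liver X receptor agonist T0901317 at 10 µM. OA samples were kept in DMEM with 25 µM oleic acid, which was dissolved in 11% BSA in PBS, for 6 hours. All media held 10% fetal bovine serum and 1% penicillin and streptomycin. Medium, compound and duration differ together between the groups, and no sample received the albumin carrier alone, so their parts in a difference cannot be told apart. Whether the samples of a group were separate cultures is not stated, and the spread that the p-values rest on may therefore be technical.

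Levels are counts brought to a common library total with the trimmed mean of M values (TMM-scaled CPM, here CPM), given as mean ± SD over 3 samples. Comparisons between genes use CPM per kilobase of exon (CPM per kb). A gene was called where the Benjamini-Hochberg adjusted p of edgeR's quasi-likelihood test over 13636 genes was under 0.05, and every adjusted p of a gene below comes from that fit unless another setting is named. Totals ran from 7836520 to 43043347 estimated counts per library. Samples of a group correlated at 0.965 or more across genes, and samples of different groups at 0.954 or less.

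Markers of liver cells were checked beside those of other cells. All 9 hepatocyte markers on the list reached 1 CPM in every group, and their summed level was 41716 to 43251 CPM in WT, 75562 to 77607 CPM in DNL and 13394 to 15283 CPM in OA. In DNL against WT, 8 of the 9 were called higher and 1, HNF4A, lower. In OA against WT, 8 were called lower and 1 was not called. Of all tested genes, 27.1% were higher and 26.8% lower in DNL, and 30.4% and 29.7% in OA. The cholangiocyte list summed to 459 to 475 CPM in WT, 844 to 954 CPM in DNL and 802 to 955 CPM in OA, with CFTR at 0 in all libraries. KRT7 from that list was at 0 in WT and DNL but not in OA. Of the 5 cholangiocyte markers, 3 reached 1 CPM in WT and in DNL and 4 in OA. Of 5 leukocyte markers CD3E was at 0 and PTPRC averaged 0.704, 0.486 and 0.327 CPM in WT, DNL and OA, while LYZ gave most of the summed 979 to 1712 CPM. Endothelial markers summed to at most 6.92 CPM. Of 6 fibroblast and stellate markers, 3 reached 1 CPM in WT and in DNL and 5 in OA. Their sum was 71.0 to 77.0 CPM in WT, 90.5 to 92.6 CPM in DNL and 92.7 to 972 CPM in OA. COL1A1 measured 19.3, 85.0 and 537 CPM in OA replicates 1, 2 and 3 and less than 1 CPM in the other 6 libraries. COL1A2 measured 10.2, 41.1 and 260 CPM in those OA libraries and was at 0 elsewhere. PDGFRB was lower in OA, at 2.37, 4.35 and 7.60 CPM, than in WT, at 9.46, 11.6 and 8.71 CPM. ACTA2 measured 58.5, 80.2 and 164 CPM in OA beside 61.4, 62.2 and 60.2 CPM in WT. DCN reached at most 3.56 CPM and LUM at most 0.713 CPM in any library. Of 5 tested markers of this list, 1 was called higher and 1 lower in OA against WT, beside 30.4% and 29.7% of all tested genes.

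The 8 genes did not move as a block. GPC3 and DLK1 were highest in DNL and lowest in OA, AFP was at a similar mean in WT and DNL and lower in OA, and the RNA-binding protein genes and PEG10 were lower in DNL than in WT. In DNL against WT, 2 of the 8 rose, 5 fell and 1 was not called, where 53.8% of all tested genes were called, 27.1% higher and 26.8% lower. In OA against WT, 1 rose, 5 fell and 2 were not called, where 60.0% of tested genes were called, 30.4% higher and 29.7% lower. All 8 were called between DNL and OA, 4 higher and 4 lower in DNL, where the background was 62.8%, with 31.9% higher and 30.9% lower. Calls were thus common over the whole table, and with 8 genes nothing is read from the counts beyond this background. The groups' differences share the WT samples, and DNL against OA shares samples with both others.

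Changes of at least 2-fold were found in 0 of the 8 genes in DNL against WT, 2 in OA against WT and 3 in DNL against OA. The share of all tested genes with such a call was 12.3%, 16.8% and 20.1%. The median log2 fold change of the 8 genes was -0.15, -0.32 and 0.08 in these comparisons, beside -0.02, -0.03 and 0.01 for all tested genes.

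**Figure D1:**
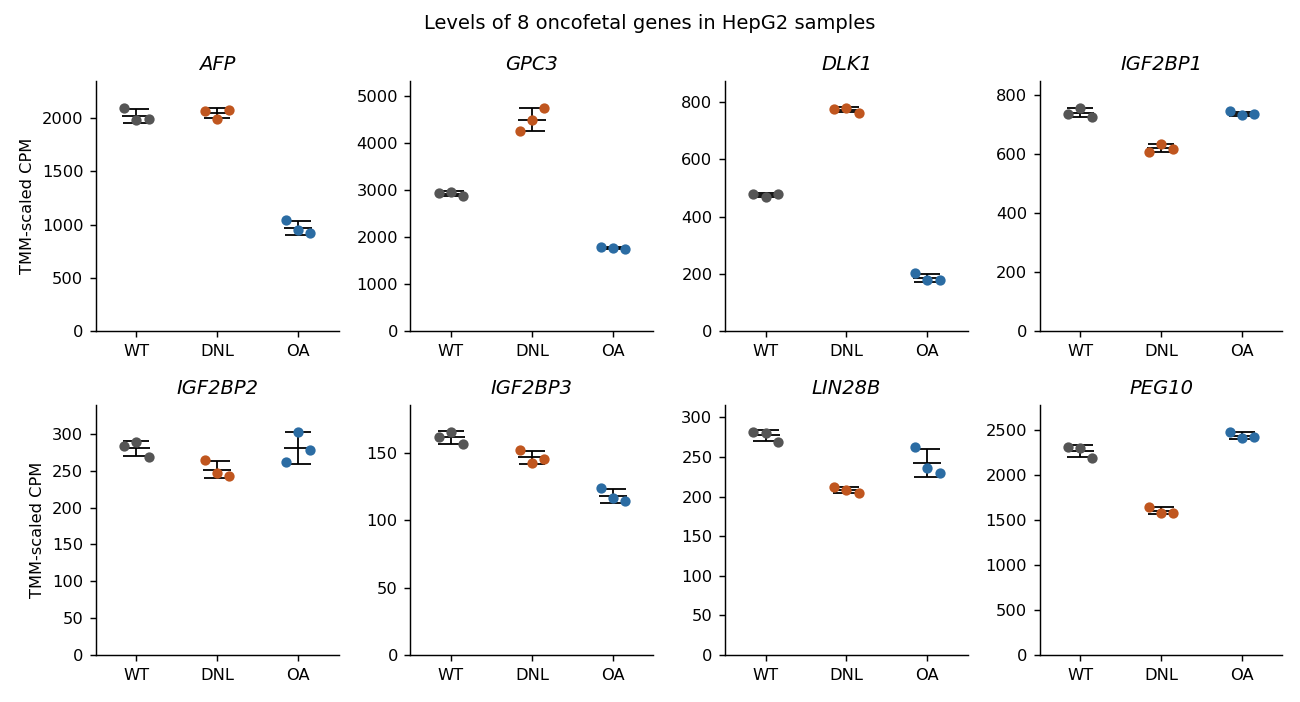
Level of each gene in TMM-scaled CPM (vertical axes from 0) in the 3 samples of WT, DNL and OA. Points are samples and bars the mean ± SD. GPC3 and DLK1 have the order DNL, WT, OA without overlap, AFP is lower in OA only, and IGF2BP1, LIN28B and PEG10 have their lowest samples in DNL.

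AFP encodes alpha-fetoprotein, the main plasma protein of the fetus and a serum marker of liver tumours. In WT its level was 2094, 1979.7 and 1987 CPM, in DNL 2069, 1993 and 2072 CPM, and in OA 1038, 951 and 917 CPM. The WT and DNL samples overlapped, and every OA sample lay below all of them. AFP fell in OA from 2020.3 ± 64.1 to 969 ± 62.6 CPM, a 2.09-fold difference (log2 fold change -1.06, SE 0.05, adjusted p = 1.04e-09). Of all tested genes, 17.6% had a larger absolute change in that comparison.

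The difference between DNL, at 2045 ± 44.5 CPM, and WT was not called (log2 fold change 0.02, SE 0.05, adjusted p = 0.773). Scaling by library totals gave the other sign and a call (log2 fold change -0.15 with an adjusted p of 0.0145). That scaling shifted the median of all genes by -0.17 in this comparison. The fall in OA went with a lower summed level of the hepatocyte markers and with collagen levels that were higher and unequal between the OA libraries. Without OA replicate 3, the library with the highest collagen level, it was -1.02 (adjusted p = 3.78e-09). The part of the hepatocyte markers in the result was not tested. As these are bulk samples, fewer cells with AFP and less AFP RNA per cell cannot be told apart, here and for every gene below.

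AFP lies on chromosome 4 (73431138 to 73456174, plus strand, GRCh38, GENCODE 29), in the albumin gene family cluster. ALB, which encodes albumin, ends 9725 bases before it on the same strand, counted between the GENCODE spans. AFM and GC are the other listed members. GC had no counts in any library and AFM reached at most 0.431 CPM, and neither was tested. ALB measured 6128, 5982 and 5935 CPM in WT, 7150.3, 6930.4 and 7587 CPM in DNL, and 1787, 1560.3 and 1536 CPM in OA. Its samples did not overlap between any of the groups. ALB fell by 1.89 in OA on the log2 scale (SE 0.06, adjusted p = 4.21e-11) and rose in DNL by 0.26 (SE 0.05, adjusted p = 0.00129), the latter without a call with scaling by library totals (0.10, adjusted p = 0.171).

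The levels of both genes per kilobase gave an AFP to ALB ratio of 0.348 ± 0.00568 in WT, 0.294 ± 0.00922 in DNL and 0.617 ± 0.0149 in OA. All 3 OA samples had a higher ratio than any other sample and all 3 DNL samples a lower ratio than any WT sample. On the log2 scale the ratio was 0.83 higher in OA than in WT and 0.25 lower in DNL (-0.25). An exact two-sided permutation test gave p = 0.1 for each of the 3 pairs of groups (adjusted p = 0.1), which is the smallest value that 3 samples against 3 allow.

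The promoters of the neighbours are shown because ALB and AFP, though adjacent, differed in DNL and fell to unequal extents in OA. They are the 250 bases before the RefSeq start sites (GRCh38.p14), at chr4:73435971-73436220 for AFP and chr4:73404037-73404286 for ALB, both on the plus strand. The GENCODE spans of both genes begin further upstream, so these stretches lie within them. Capitals mark a match to a wide form of the motif of the liver factor HNF1, which begins with GTTA and ends with TNNAC, searched on both strands.
AFP: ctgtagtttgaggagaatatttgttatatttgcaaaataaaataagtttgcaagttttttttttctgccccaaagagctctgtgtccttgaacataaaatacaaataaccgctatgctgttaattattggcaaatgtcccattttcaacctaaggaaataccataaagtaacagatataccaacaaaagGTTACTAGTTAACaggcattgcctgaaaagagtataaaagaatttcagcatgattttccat
ALB: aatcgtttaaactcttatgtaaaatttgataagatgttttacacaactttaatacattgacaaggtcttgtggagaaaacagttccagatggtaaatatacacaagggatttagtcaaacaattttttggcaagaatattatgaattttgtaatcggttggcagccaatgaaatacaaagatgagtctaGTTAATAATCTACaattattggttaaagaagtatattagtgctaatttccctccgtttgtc

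The match stands at the same place in both, bases -61 to -49 counted from the start site. This pattern was widened after the promoters had been read, and 0.421% of 35116 RefSeq promoters of the same length hold it. A narrower form, which ends with TTAAC and overlaps the wide one, matched in AFP and not in ALB and is held by 0.0769% of promoters. AFP also has TATAAA at bases -29 to -24, a motif that 10.7% of promoters hold. CCAAT was found once in AFP and at 2 places in ALB, and in 32.0% of promoters. The AFP and ALB promoters have a GC content of 31.6% and 30%, where the median of all promoters is 58.0%. These matches describe letters and were not tested as binding sites.

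Regulators of AFP were taken from a list of 17 factors, all tested. Between WT and DNL, 9 of them rose and 6 fell in DNL, with a median log2 fold change of 0.20 beside -0.02 for all genes. In OA against WT, 3 rose and 9 fell, with a median of -0.21 beside -0.03. Among all tested genes, 27.1% rose and 26.8% fell in DNL, and 30.4% rose and 29.7% fell in OA. ZBTB20, a zinc finger repressor of AFP after birth, measured 126 ± 6.26 CPM in WT, 149 ± 12.0 CPM in DNL and 318 ± 14.8 CPM in OA. It rose in OA by 1.33 on the log2 scale (adjusted p = 1.46e-09) and in DNL by 0.24 (adjusted p = 0.00498), the latter without a call with scaling by library totals (0.07, adjusted p = 0.329).

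ZHX2, another repressor of AFP, measured 71.6 ± 3.47 CPM in WT, 90.1 ± 4.65 CPM in DNL and 60.4 ± 6.38 CPM in OA. It rose in DNL by 0.33 (adjusted p = 0.00203) and fell by 0.24 in OA (adjusted p = 0.0139) on the log2 scale. Neither call was made with scaling by library totals (adjusted p = 0.0638 and 0.0508), and the call in OA was also lost without WT replicate 2 (adjusted p = 0.0544). NR5A2, a nuclear receptor that activates AFP, rose in DNL from 23.6 ± 1.45 to 35.6 ± 0.501 CPM (adjusted p = 2.04e-05). In OA it measured 20.4 ± 0.833 CPM, a log2 fold change of -0.21 that passed the test (adjusted p = 0.0345) but not in 10 of 16 other settings, among them limma-voom (adjusted p = 0.0563) and DESeq2 (adjusted p = 0.0891).

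HNF4A, a hepatocyte nuclear receptor, fell in OA from 567 ± 13.7 to 257 ± 28.4 CPM (DNL 481 ± 25.0 CPM), and FOXA3, a forkhead factor, fell there from 67.7 ± 2.08 to 30.5 ± 1.94 CPM. FOXA3 also fell in DNL, to 33.2 ± 3.4 CPM, where AFP was not called. FOXA1, a related forkhead factor, fell by 0.54 in DNL on the log2 scale. RORA, an orphan nuclear receptor, rose in DNL from 30.7 ± 2.15 to 67.5 ± 5.36 CPM. GATA6 rose in OA from 2.56 ± 0.638 to 8.14 ± 0.578 CPM and in DNL to 7.11 ± 0.831 CPM.

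GPC3 encodes glypican-3, a heparan sulphate proteoglycan held at the cell surface by a lipid anchor. It measured 2944, 2950.3 and 2868 CPM in WT, 4255, 4483 and 4741 CPM in DNL, and 1779.9, 1770.2 and 1748 CPM in OA. All DNL samples were above all WT samples and all OA samples below them. GPC3 rose in DNL 1.54-fold (log2 fold change 0.62, SE 0.04, adjusted p = 4.72e-08). In OA it fell 1.65-fold (log2 fold change -0.73, SE 0.04, adjusted p = 9.31e-09). DNL exceeded OA 2.54-fold (adjusted p = 2.03e-11). The gene spans 133535745 to 133985895 on the minus strand of chromosome X. The fall in OA was -0.72 without OA replicate 3. Both differences from WT had the direction of the summed hepatocyte markers, whose part was not tested.

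The list of other glypicans and of the enzymes that process them had 12 of 14 genes tested. Here 5 rose and 4 fell in DNL against WT, where 27.1% of all tested genes rose and 26.8% fell, and only 2 rose with scaling by library totals. Against WT, OA had 3 higher and 5 lower, beside 30.4% higher and 29.7% lower of all genes. The medians were 0.14 and -0.18 on the log2 scale. NOTUM, an enzyme on this list whose action on glypicans was not tested, fell in OA from 252 ± 3.83 to 153 ± 6.69 CPM. SULF2, a sulphatase that trims heparan sulphate, rose in DNL from 70.1 ± 2.60 to 158 ± 14.8 CPM. FURIN, the protease that cleaves glypican-3, fell in DNL from 318 ± 1.06 to 190.4 ± 5.60 CPM and in OA to 237 ± 6.76 CPM (adjusted p = 7.31e-07).

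NDST1, which sulphates heparan chains, fell by 0.50 in DNL and in OA by 0.87 on the log2 scale. The chain-building enzymes EXT1 and EXTL3 rose in OA by 0.51 and 0.65, and EXT2 rose in DNL by 0.53. GPC1, a family member, was lower in DNL than in OA, at 16.9 ± 4.10 against 50.04 ± 6.89 CPM, with WT between them at 31.4 ± 1.62 CPM. FURIN fell in both comparisons with WT, while GPC3 rose in DNL and fell in OA, and a link between them was not tested.

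DLK1 encodes a transmembrane protein related to Notch ligands, and its outer part is shed from the cell. Its level was 480.0, 468 and 479 CPM in WT, 777, 780.1 and 763 CPM in DNL, and 202, 179 and 178 CPM in OA. The groups did not overlap, with DNL highest and OA lowest. DLK1 rose in DNL 1.63-fold (log2 fold change 0.70, SE 0.04, adjusted p = 3.87e-08). It fell in OA 2.55-fold (log2 fold change -1.35, SE 0.05, adjusted p = 1.11e-10), and -1.32 was found without OA replicate 3. The 4.15-fold difference between DNL and OA (log2 fold change 2.05, adjusted p = 1.54e-12) was the largest of the 8 genes in any comparison, and 6.25% of tested genes had a larger one there. Its span is 100725705 to 100738224 on the plus strand of chromosome 14. These directions too were those of the summed hepatocyte markers, whose part was not tested.

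Genes of DLK1 shedding and of the Notch pathway were tested for 14 of 17 listed. Of these, 6 rose and 3 fell in DNL against WT, with a median of 0.26 on the log2 scale beside -0.02 for all genes, and with scaling by library totals 3 rose. For all tested genes the shares were 27.1% and 26.8%. Among them 8 rose and 4 fell in OA against WT, where 30.4% of all genes rose and 29.7% fell, with a median of 0.74. ADAM17, the protease that sheds DLK1, rose in OA from 73.7 ± 5.17 to 125 ± 9.84 CPM. ADAM10, a related protease, rose in DNL by 0.44 and fell by 0.57 in OA on the log2 scale. JAG1, a canonical Notch ligand, fell in DNL from 806 ± 13.1 to 277 ± 10.8 CPM and in OA to 655 ± 26.3 CPM.

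NOTCH2, a receptor, rose in DNL from 30.9 ± 1.55 to 53.3 ± 0.841 CPM and in OA to 61.0 ± 7.33 CPM. Targets of Notch signalling differed in direction in OA. HES1 fell in OA from 22.1 ± 2.49 to 8.93 ± 1.6 CPM, and its level in DNL was 28.3 ± 2.25 CPM. HEY1 and NRARP, named after their values were seen, rose in OA by 2.60 and 0.78 on the log2 scale (adjusted p = 4.19e-06 and 0.00243). In DNL, HES1, HEY1 and NRARP were all called higher, by 0.35, 0.94 and 0.60 (adjusted p = 0.0270, 0.0136 and 0.0136). Some of the 16 other settings did not keep these calls. DLK2, the paralogue of DLK1, fell in DNL from 13.1 ± 0.337 to 8.98 ± 0.521 CPM, while DLK1 rose, and also fell in OA, to 5.99 ± 1.22 CPM. The pathway genes therefore moved in both directions in each comparison.

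**Figure D2:**
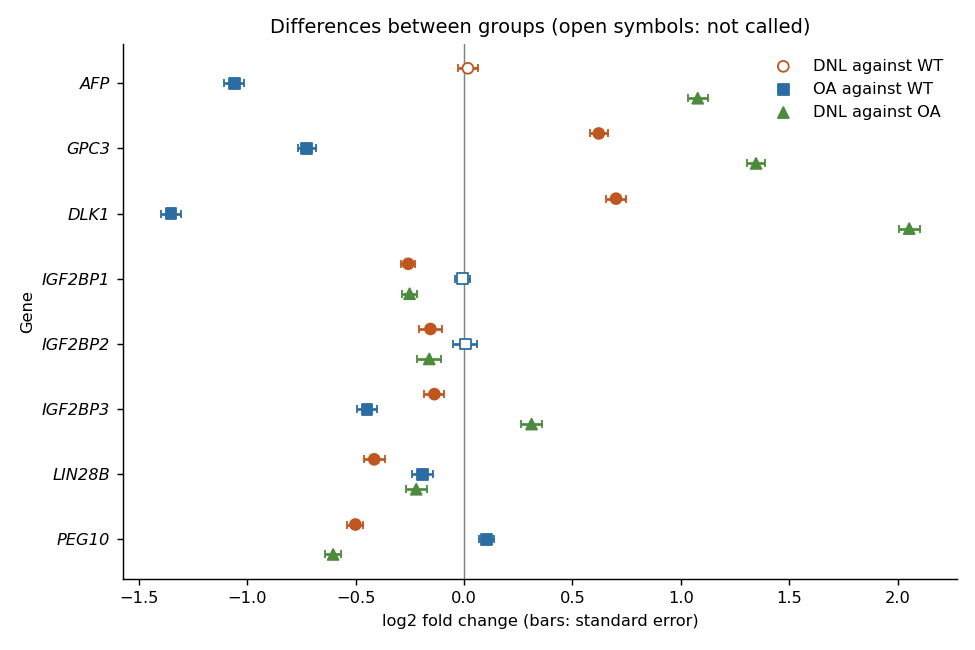
Log2 fold change (horizontal axis) of each gene in DNL against WT, OA against WT and DNL against OA. Bars are the standard error, and open symbols mark differences that were not called. DLK1 spans the widest range, from -1.35 in OA against WT to 2.05 in DNL against OA, and the 3 IGF2BP genes stay within 0.5 of zero.

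IGF2BP1, IGF2BP2 and IGF2BP3 are paralogues that differ little in their RNA-binding domains. IGF2BP1 measured 737, 757 and 727 CPM in WT, 606, 634 and 618 CPM in DNL, and 745, 731 and 736 CPM in OA. Its DNL samples lay below all others, and the WT and OA samples overlapped. The gene fell by 0.26 in DNL on the log2 scale (SE 0.03, adjusted p = 2.84e-05). In OA its log2 fold change was -0.01 (SE 0.03, adjusted p = 0.884), with the other sign under RLE size factors, scaling by library totals and DESeq2 (0.02, 0.06 and 0.02).

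IGF2BP2 measured 283, 289 and 269 CPM in WT, 264, 247 and 243 CPM in DNL, and 261, 303 and 278 CPM in OA. Its DNL samples lay below the WT samples, and its OA samples overlapped both groups. The gene fell by 0.16 in DNL on the log2 scale (SE 0.05, adjusted p = 0.0297), which 77.1% of tested genes exceeded in size. The call was lost without DNL replicate 2, DNL replicate 3, WT replicate 1 or WT replicate 2 (adjusted p = 0.117, 0.0989, 0.105 and 0.0988). In OA the log2 fold change was 0.01 (SE 0.06, adjusted p = 0.940). DNL was lower than OA by 0.16 (-0.16, adjusted p = 0.0227), also a call that leaving out DNL replicate 2, DNL replicate 3 or OA replicate 2 ended (adjusted p = 0.0806, 0.0863 and 0.131).

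IGF2BP3 measured 162, 166 and 156 CPM in WT, 152, 143 and 146 CPM in DNL, and 124, 116 and 114 CPM in OA. The groups had the order WT, DNL, OA without overlap. The gene fell by 0.45 in OA on the log2 scale (SE 0.05, adjusted p = 3.20e-06), the only called change of the paralogues in that comparison. In DNL it fell by 0.14 (SE 0.05, adjusted p = 0.0239), and that call was lost without DNL replicate 2, DNL replicate 3, WT replicate 1 or WT replicate 2 (adjusted p = 0.119, 0.0627, 0.0857 and 0.0923). DNL exceeded OA by 0.31 (adjusted p = 7.89e-05), without a call with scaling by library totals (0.08, adjusted p = 0.177).

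Per kilobase, the summed level of the 3 paralogues was 159 ± 4.31 CPM per kb in WT, 138 ± 1.95 in DNL and 154 ± 3.37 in OA. IGF2BP1 made up 51.0% ± 0.482 of that sum in WT, 49.1% ± 1.47 in DNL and 52.5% ± 1.59 in OA. IGF2BP2 made up 37.1% ± 0.446, 38.4% ± 1.22 and 38.4% ± 2.07 in the same order. IGF2BP3 made up 11.9% ± 0.0362 in WT, 12.5% ± 0.320 in DNL and 9.03% ± 0.534 in OA, so its share was lowest in all OA samples. Exact two-sided permutation tests over the samples gave p between 0.1 and 1.0 in the 9 comparisons of shares (adjusted p between 0.15 and 1.0), and none could go below 0.1.

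**Figure D3:**
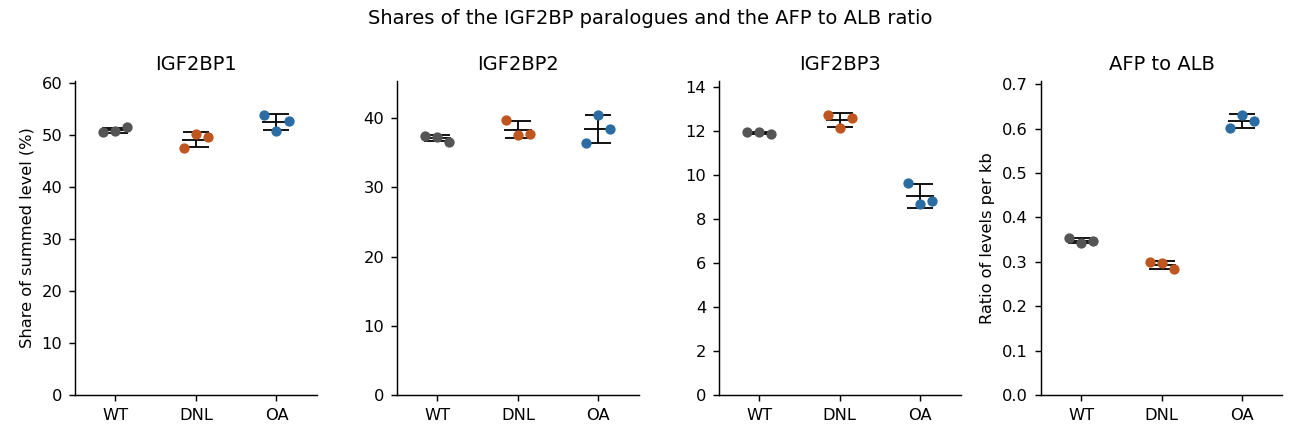
Share of each IGF2BP paralogue in the summed level of the 3 (percent, first 3 panels) and ratio of AFP to ALB levels per kilobase (last panel), by sample, with mean ± SD. The share of IGF2BP3 is 9.03% in OA against 11.9% in WT, and the AFP to ALB ratio is highest in OA, at 0.617.

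IGF2BP1 lies on chromosome 17 (48997412 to 49055650, plus strand), IGF2BP2 on chromosome 3 (185643739 to 185825056, minus strand) and IGF2BP3 on chromosome 7 (23310209 to 23470467, minus strand). The m6A list held writers, erasers and other readers of this mark, with 16 of 17 genes tested. The DNL samples had 6 of them higher and 1 lower than WT, with a median of 0.12 on the log2 scale, but only 1 rose with scaling by library totals. In OA against WT, 7 rose and 3 fell, with a median of 0.18. The shares of all tested genes were 27.1% higher and 26.8% lower in DNL, and 30.4% and 29.7% in OA.

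METTL3, the catalytic subunit of the writer, fell in DNL from 25.0 ± 3.19 to 17.0 ± 2.75 CPM. VIRMA, another subunit, rose in DNL by 0.39 and in OA by 0.33 on the log2 scale. RBM15, an adaptor of the writer, rose in OA by 0.54, and WTAP, a further subunit, was lower in DNL than in OA by 0.36 (-0.36). Among readers, YTHDC2 fell by 1.00 in OA and YTHDF2 rose there by 0.42. FTO, an eraser, fell by 0.40 in OA on the log2 scale. Called writers thus moved in both directions in DNL against WT, and called readers did so in OA against WT. Within this list, the called writers all rose in OA, and the called readers all rose in DNL. YTHDF2 rose in DNL by 0.24, without a call with scaling by library totals (0.08, adjusted p = 0.228). The 3 IGF2BP genes, which are not on this list, fell in DNL within the limits given above.

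LIN28B binds let-7 precursors and keeps them from being processed. It measured 282, 280.0 and 269 CPM in WT, 212, 208 and 204 CPM in DNL, and 262, 236 and 229 CPM in OA. The groups had the order WT, OA, DNL, and no samples overlapped. LIN28B fell by 0.41 in DNL on the log2 scale (SE 0.05, adjusted p = 1.09e-05) and in OA by 0.19 (SE 0.05, adjusted p = 0.00407). DNL was lower than OA by 0.22 (-0.22, adjusted p = 0.00162). The fall in OA was between 0.13 and 0.26 in size over all alternatives (-0.13 with library totals, -0.26 without OA replicate 1) and was called in each. LIN28B spans 104936616 to 105083332 on the plus strand of chromosome 6.

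Its paralogue LIN28A was at a low level, with 1.30 ± 0.0965 CPM in WT, 0.584 ± 0.185 CPM in DNL and 1.20 ± 0.22 CPM in OA. LIN28A was called lower in DNL than in WT (log2 fold change -1.15, adjusted p = 0.0145), without a call when DNL replicate 1 was left out (adjusted p = 0.0763). Its log2 fold change in OA was -0.08 (adjusted p = 0.850), and 0.03 without OA replicate 3. LIN28B was therefore the LIN28 gene with nearly all of the counts.

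The mature let-7 sequences are shown because LIN28B and the IGF2BP mRNAs are known targets of this family. RefSeq gave 9 mature members, of which 3 that differ outside the seed are printed, with the seed (bases 2 to 8) in capitals. All 9 share the seed GAGGUAG.
let-7a-5p: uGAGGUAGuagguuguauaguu
let-7g-5p: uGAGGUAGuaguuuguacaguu
miR-98-5p: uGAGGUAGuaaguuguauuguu

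The 3′ UTRs of GENCODE 29 were searched for CTACCTC, the complement of this seed, on the transcript strand. AFP, GPC3, DLK1 and PEG10 had no match. LIN28B and IGF2BP1 had 4 matches each, and IGF2BP2 and IGF2BP3 had 1 each. Of all 18793 genes with a 3′ UTR, 9.65% had a match. The 3′ UTRs of LIN28B and IGF2BP1 are long, at 4549 and 6206 bases, so UTRs of similar length are the closer background. At least as many matches as in LIN28B were found in 0.195% of 1539 such UTRs, and as in IGF2BP1 in 0.562% of 889. Each gene is itself counted in its background. The single matches of IGF2BP2 and IGF2BP3 are common at their lengths, with at least 1 match in 11.4% of 2734 and 12.3% of 2660 such UTRs. The sites stand at the end of the 30-base windows below, in capitals, with coordinates on GRCh38.
LIN28B, chr6:105078805-105078834, plus strand: ttcctttacccggttgcaaagtCTACCTCa
LIN28B, chr6:105081232-105081261, plus strand: tattatgtactgatgatagtaaCTACCTCt
LIN28B, chr6:105081414-105081443, plus strand: ttactctgtttacagcaaaaggCTACCTCa
LIN28B, chr6:105082853-105082882, plus strand: agcttgaaaatgatggtgttgaCTACCTCt
IGF2BP1, chr17:49051054-49051083, plus strand: gcaatgctgtgtgcgaagtaaaCTACCTCa
IGF2BP1, chr17:49053691-49053720, plus strand: tgggaaccagcagtgctagtaaCTACCTCa
IGF2BP1, chr17:49054345-49054374, plus strand: gctacgagtataaatggattaaCTACCTCa
IGF2BP1, chr17:49054990-49055019, plus strand: ccccatttcacttttgttttatCTACCTCt
IGF2BP2, chr3:185644220-185644249, minus strand: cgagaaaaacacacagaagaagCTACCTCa
IGF2BP3, chr7:23311795-23311824, minus strand: ttaaacgtgcatttttactcaaCTACCTCa

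An A follows the match, a feature of stronger sites, in 2 of the 4 matches of LIN28B, 3 of the 4 of IGF2BP1 and in the single match of IGF2BP2 and of IGF2BP3. The 4 genes with a match fell in DNL against WT, where the calls of IGF2BP2 and IGF2BP3 have the limits given above, while of the 4 without a match GPC3 and DLK1 rose, PEG10 fell and AFP was not called. In OA against WT, IGF2BP3 and LIN28B fell and IGF2BP1 and IGF2BP2 were not called. Over all tested genes, the 32 with at least 3 matches, which include LIN28B and IGF2BP1, had a median log2 fold change of -0.00 in DNL against WT and -0.16 in OA against WT, and 43.8% of them were called lower in DNL and 46.9% in OA. For the 11980 genes with no match the shares called lower were 26.8% and 29.3%, and their UTRs were shorter (median 1221 against 5984.5 bases). Of the 1344 genes with 1 match, 26.9% were called lower in DNL and 33.7% in OA, and of 159 genes with 2 matches, 27.7% and 30.2%. Those with 2 matches had a median of 0.09 in OA, where 42.1% of them were called higher. The let-7 RNAs themselves were not analysed here, and these shares were given no test.

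Genes of LIN28 action and let-7 processing were all tested, 15 in number. In DNL against WT, 2 rose and 6 fell, with a median of -0.22 on the log2 scale beside -0.02 for all genes, and with scaling by library totals 11 fell and 0 rose. In OA against WT, 3 rose and 5 fell, with a median of 0.02. Over the whole table, 27.1% of tested genes rose and 26.8% fell in DNL, and 30.4% and 29.7% in OA. TRIM71, a ubiquitin ligase that is itself a let-7 target, fell from 684 ± 6.06 CPM in WT to 479 ± 15.0 CPM in DNL and 504 ± 28.8 CPM in OA. AGO2, the slicer protein of the silencing complex, fell in DNL from 492 ± 12.2 to 325 ± 3.18 CPM and by 0.16 in OA on the log2 scale. TRIM25, a cofactor of LIN28-directed uridylation, rose in OA from 209 ± 5.08 to 380.2 ± 22.8 CPM and fell in DNL to 144 ± 5.91 CPM.

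DICER1, which cuts the precursor, rose in DNL from 173 ± 13.1 to 206 ± 8.51 CPM, and AGO1 rose there from 90.8 ± 4.05 to 109 ± 15.7 CPM. Scaling by library totals ended both calls (adjusted p = 0.257 and 0.350), and that of AGO1 was also lost without DNL replicates 1 or 3 or WT replicates 1 or 3 (adjusted p between 0.0629 and 0.0974). In OA, KHSRP, which promotes let-7 maturation, rose by 0.19, and HNRNPA1, which hinders it, fell by 0.41 on the log2 scale. Both fell in DNL, by 0.27 and 0.22. DIS3L2, the exonuclease that degrades tailed let-7 precursors, was higher in DNL than in OA by 0.46, without a call with scaling by library totals (adjusted p = 0.0520).

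Of 19 listed let-7 targets other than the oncofetal genes, 18 were tested. DNL had 4 of them higher and 10 lower than WT, with a median of -0.14 on the log2 scale. In OA against WT, 12 rose and 5 fell, with a median of 0.32. For all tested genes the shares were 27.1% higher and 26.8% lower in DNL, and 30.4% and 29.7% in OA. HMGA2, a chromatin protein of fetal tissue, measured 224 ± 1.73 CPM in WT, 329.7 ± 7.07 CPM in DNL and 145 ± 3.87 CPM in OA, and so rose in DNL by 0.56 and fell by 0.62 in OA on the log2 scale (adjusted p = 4.87e-08 and 1.82e-08). HMGA1, its paralogue, fell in DNL from 946 ± 17.3 to 267 ± 15.3 CPM and rose in OA to 1401 ± 173 CPM. ARID3A fell in both, from 652 ± 23.4 CPM to 264 ± 2.0 CPM in DNL and 298 ± 12.4 CPM in OA.

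CCND1, which encodes cyclin D1, rose in DNL from 452 ± 5.14 to 806 ± 28.7 CPM. ARID3B rose in OA from 39.6 ± 1.99 to 151 ± 30.2 CPM and E2F2 from 1.34 ± 0.228 to 5.52 ± 0.882 CPM, and E2F2 also rose in DNL, to 2.39 ± 0.235 CPM. MYC was lower in DNL than in OA, at 258 ± 9.67 against 489 ± 34.0 CPM, with WT between them at 398 ± 16.9 CPM. HMGA2 and HMGA1 had opposite calls in DNL, so the listed targets had no common direction there.

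PEG10 is transcribed from the paternal allele and encodes proteins resembling the gag and pol of a retrotransposon, made by a ribosomal frameshift. Its level was 2314, 2304 and 2188 CPM in WT, 1648, 1579 and 1579 CPM in DNL, and 2483, 2408 and 2418 CPM in OA. The DNL samples lay far below the others, and every OA sample was above every WT sample by a small margin. PEG10 fell in DNL 1.42-fold (log2 fold change -0.50, SE 0.04, adjusted p = 1.26e-07). In OA it rose by 0.10 (SE 0.04, adjusted p = 0.0269), which 87.0% of tested genes exceeded in size. That call was lost without the filter on low counts (0.08, adjusted p = 0.0752) and without OA replicate 1, WT replicate 2 or WT replicate 3 (adjusted p = 0.0544, 0.0513 and 0.15). DNL was lower than OA by 0.60 (-0.60, adjusted p = 1.18e-08).

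PEG10 lies on chromosome 7 (94656325 to 94669695, plus strand) beside SGCE, an imprinted gene on the other strand whose span overlaps that of PEG10 by 248 bases. The strand setting of the quantification is not given in the sources used here, so reads in the overlap cannot be assigned with certainty. SGCE measured 20.2 ± 2.90 CPM in WT, 27.6 ± 2.38 CPM in DNL and 20.9 ± 1.45 CPM in OA. It rose in DNL by 0.45 on the log2 scale (adjusted p = 0.00424), against the direction of PEG10. In OA its log2 fold change was 0.05 (adjusted p = 0.732), with the other sign without OA replicate 1 or WT replicate 2 (-0.01 and -0.07).

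Of 20 listed imprinted genes other than the oncofetal ones, 12 were tested, and H19 and MEG3 were not analysed here. DNL had 8 of these higher and 1 lower than WT, with a median of 0.61 on the log2 scale. In OA against WT, 2 rose and 6 fell, with a median of -0.13. The background of all tested genes was 27.1% higher and 26.8% lower in DNL, and 30.4% and 29.7% in OA. IGF2, a fetal growth factor whose mRNA gave the IGF2BP proteins their name, measured 3375 ± 162 CPM in WT, 8959 ± 754 CPM in DNL and 1061 ± 78.0 CPM in OA. IGF2 rose in DNL by 1.41 (adjusted p = 1.01e-08) and fell by 1.67 in OA (adjusted p = 2.31e-09) on the log2 scale. GNAS, which encodes a stimulatory G protein subunit, rose in DNL from 506 ± 17.6 to 889 ± 19.4 CPM.

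PEG3, a zinc finger gene, fell in OA from 1034 ± 18.2 to 345 ± 15.9 CPM. GRB10, an adaptor that restrains insulin signalling, rose in OA from 68.7 ± 5.60 to 161 ± 13.1 CPM. SLC22A18 was the tested member that fell in DNL, from 15.2 ± 0.739 to 8.13 ± 1.07 CPM, and it fell in OA too, to 9.53 ± 1.34 CPM. DLK1, which is imprinted as well, rose in DNL with the majority of the list, and PEG10 fell.

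Other tumour and progenitor markers of the liver were tested for 13 of 16 listed. The DNL samples had 5 higher and 4 lower than WT, where 27.1% of all tested genes rose and 26.8% fell. In OA against WT, 5 rose and 2 fell, beside 30.4% and 29.7% of all tested genes. The medians were 0.62 and 0.17 on the log2 scale. The mean in DNL was -0.02, of the other sign than the median. SOX9, a factor of bile duct and progenitor cells, rose in DNL from 320 ± 8.13 to 661 ± 28.6 CPM and fell in OA to 254 ± 14.9 CPM. CD24, a surface glycoprotein, rose in both, from 23.4 ± 0.539 to 56.8 ± 4.25 CPM in DNL and 81.9 ± 7.75 CPM in OA.

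SOX4, a factor of progenitor cells, fell in DNL from 144 ± 2.91 to 88.9 ± 3.66 CPM and rose in OA to 307 ± 14.9 CPM. MDK, a heparin-binding growth factor, fell by 0.69 in DNL on the log2 scale, and its difference between OA and WT was not called. GOLM1, a Golgi protein found in serum, fell by 1.20 in DNL and by 0.87 in OA, from 6.99 ± 0.611 CPM in WT, and the difference between DNL and OA was not called (adjusted p = 0.134). Between DNL and OA, EPCAM was higher in DNL by 0.50, and KRT19, a keratin of bile ducts, was lower in DNL, at 151 ± 20.8 against 551 ± 60.3 CPM, both above the 92.2 ± 2.97 CPM of WT. SOX9 therefore shared the directions of GPC3 and DLK1 in both comparisons with WT, and SOX4 had the opposite ones.

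Set directly against OA, the DNL samples had 8 of the 17 regulators of AFP higher and 4 lower, with a median log2 fold change of 0.22. Of the 12 glypican genes, 6 were higher and 4 lower (median 0.02), and of the 14 genes around DLK1 and Notch, 3 were higher and 8 lower (median -0.47). The let-7 processing genes had 4 higher and 7 lower (median -0.10), and the let-7 targets 4 higher and 11 lower (median -0.40). Of the m6A genes 5 were higher and 6 lower (median 0.07), of the imprinted genes 8 higher and 1 lower (median 0.56), and of the other tumour and progenitor markers 3 higher and 6 lower (median -0.53). Of all tested genes, 31.9% were called higher and 30.9% lower in DNL than in OA, with a median of 0.01. This comparison shares its samples with both comparisons to WT.

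**Figure D4:**
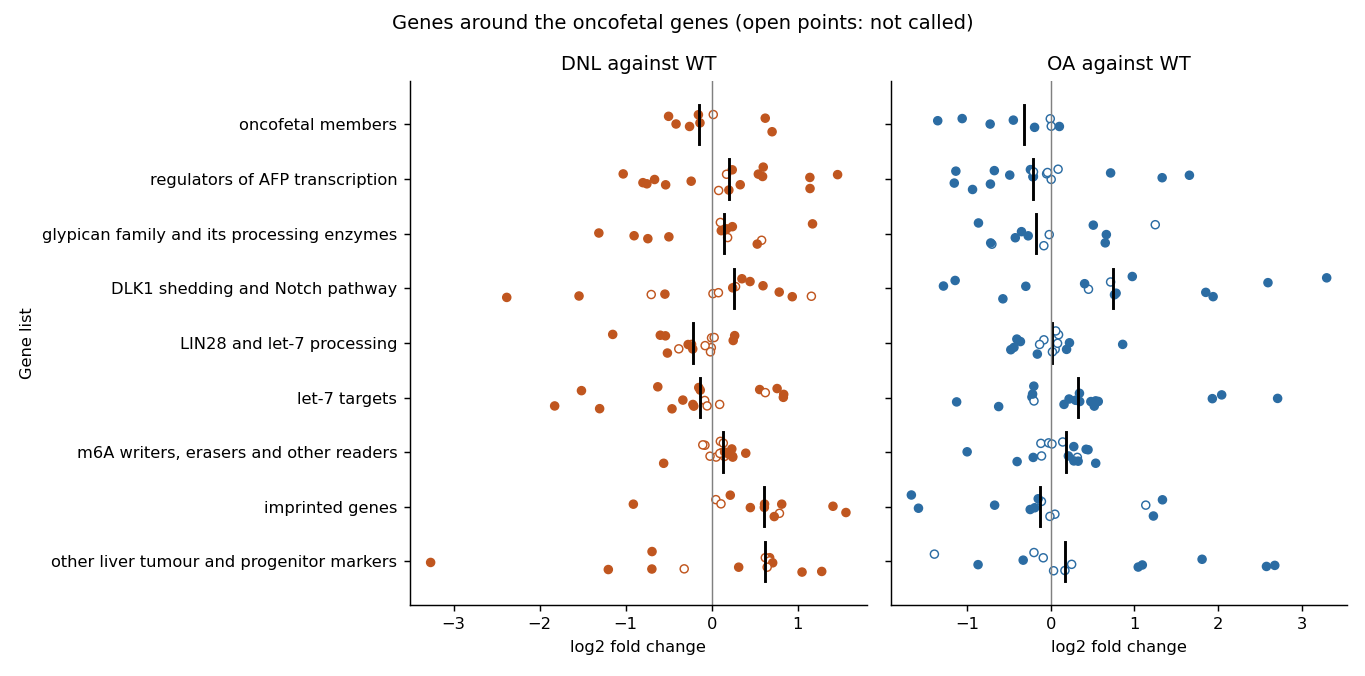
Log2 fold change (horizontal axis) of each tested gene of 9 lists, in DNL against WT (left) and OA against WT (right). Filled points passed the test, open points did not, and black lines are list medians. The imprinted genes lie mostly above 0 in DNL (median 0.61) and the let-7 targets mostly above 0 in OA (median 0.32), with tested members on both sides of 0 in each of the 9 lists drawn. The albumin gene cluster, with 1 tested gene, is not drawn.

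The levels per kilobase place the 8 genes on a common scale, with the limit that the length used is that of all annotated exons and not of the isoform present. In WT the order was GPC3 (1077 ± 16.9 CPM per kb), AFP (619.9 ± 19.7), PEG10 (339 ± 10.4), DLK1 (89.5 ± 1.22), IGF2BP1 (81.3 ± 1.64), IGF2BP2 (59.2 ± 2.20), LIN28B (46.2 ± 1.14) and IGF2BP3 (19 ± 0.565). No neighbours in this order overlapped in their samples. The order in DNL was the same, from GPC3 at 1657 ± 89.6 to IGF2BP3 at 17.3 ± 0.546 CPM per kb.

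In OA, PEG10 (364 ± 6.07 CPM per kb) stood above AFP (297 ± 19.2), and DLK1 (35.1 ± 2.52) stood below LIN28B (40.4 ± 2.91). The highest DLK1 sample in OA, at 38.0 CPM per kb, was next to the lowest LIN28B sample, at 38.2. Among all tested genes by mean CPM in WT, GPC3 ranked 15th, PEG10 23rd and AFP 26th, and IGF2BP3 ranked 1270th.

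Genes with the most similar profile were sought among 10279 genes, by the Euclidean distance between centred log2 profiles over the 9 samples. The nearest to AFP were LZIC, KAZN and HDDC2 (distances 0.17, 0.18 and 0.20), and to GPC3 SLC46A1, FAM210B and STK39 (0.14, 0.19 and 0.22). TAFA5, HPN and GIPC2 were nearest to DLK1 (0.14, 0.20 and 0.21). For PEG10 they were PES1, PWP1 and DDX21 (0.10, 0.14 and 0.14), and for LIN28B HSPA4, NAT10 and PSMB5 (0.10, 0.12 and 0.13).

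CPSF7, BCL2L1 and GNB5 were nearest to IGF2BP1, KAT6B and PPWD1 to IGF2BP2, and ZNF664, ZNF326 and PHB2 to IGF2BP3, at distances from 0.09 to 0.12. Between the 8 genes themselves, IGF2BP1 and IGF2BP2 were the closest pair (0.26) and DLK1 and PEG10 the farthest (3.26). AFP was closer to GPC3 (0.76) than to DLK1 (1.23).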

How the data were processed

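Total RNA of 9 HepG2 samples in 3 groups of 3 was sequenced, and groups were taken from the sample titles, because the common treatment protocol carries the DNL recipe in all 9 records. The authors deposited estimated counts per gene, which the submitters' processing notes credit to kallisto 0.48.0, with FastQC 0.11.9 and GRCh38. Neither annotation release nor strand setting is given in the sources used here. Estimated counts were rounded, filtered with filterByExpr, scaled by TMM and tested in R 4.3.3 with edgeR 4.0.16 (robust quasi-likelihood, 1 fit of all 9 samples, group as the only factor). Standard errors were derived from the F statistic. Levels are CPM from these counts. The common dispersion of 0.0112 corresponds to a 10.6% coefficient of variation. Chi-square tests of replicate pairs gave 5.29 or more per degree of freedom, so no sample was counted as a duplicate. A count of 3 corresponded to 0.0697 to 0.383 CPM.

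The 8 genes and the gene lists were chosen with earlier results of these data known. Genes of the 9 surrounding lists were named by a rule: up to 2 called genes per direction and comparison with the smallest adjusted p and at least 5 CPM in the higher group, plus a fixed set (ALB, AFM, GC, SGCE, IGF2, H19, ZHX2, ZBTB20, NR5A2, LIN28A, HMGA2), plus the 3 genes nearest in profile (log2 of CPM + 0.5). Of the genes this rule names, 2 are not reported here. COL1A1, COL1A2, PDGFRB, ACTA2, DCN, LUM, CD3E, PTPRC, LYZ, CFTR and KRT7, named from the marker lists, and HEY1 and NRARP were chosen after their values were seen. Alternatives were RLE size factors, scaling by library totals, no filter, a replicate block, only the 6 samples compared, limma-voom (limma 3.58.1), DESeq2 1.42.0 and leaving out each sample. Gene coordinates and 3′ UTRs are from GENCODE 29 (GRCh38), and microRNAs and promoters from RefSeq (GRCh38.p14), which matched 4 of the 8 genes for promoters.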

Additional observations from a re-analysis of the deposited data

How the results depend on the processing

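GPC3 and DLK1 kept their direction and their call in all 3 comparisons under each of the 16 alternatives, as did AFP in OA against WT and DNL against OA, IGF2BP1 and LIN28B in DNL against WT and DNL against OA, LIN28B and IGF2BP3 in OA against WT, and PEG10 in DNL against WT and DNL against OA. AFP in DNL against WT turned to -0.15 with scaling by library totals, which shifted the median of all genes by -0.17 in DNL against WT, 0.07 in OA against WT and -0.23 in DNL against OA. The share of calls that were higher was then 32.2%, 56.5% and 33.9%, against 50.3%, 50.6% and 50.8%. IGF2BP3 in DNL against OA had 0.077 under that scaling. IGF2BP1 in OA against WT, never called, had 0.017 with RLE size factors, 0.061 with library totals, 0.011 with only the 6 samples compared and 0.017 with DESeq2, and -0.024 to 0.0045 when a sample was left out. IGF2BP2 in OA against WT had -0.013 without the filter on low counts and -0.058 to 0.053 when a sample was left out. PEG10 in OA against WT had 0.084 without the filter, where 0 of the 8 genes were called higher.

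Leaving out a sample gave -0.19 to -0.13 for IGF2BP2 and -0.16 to -0.11 for IGF2BP3 in DNL against WT, 0.072 to 0.12 for PEG10 in OA against WT and -0.21 to -0.10 for IGF2BP2 in DNL against OA. The genes called lower in DNL against WT numbered 3 to 5, and those called higher in OA against WT 0 to 1. LIN28A in OA against WT ranged from -0.16 to 0.033 and SGCE from -0.066 to 0.14. The share of IGF2BP2, DNL minus OA, was 0.0108 percentage points without division by length and -1.09 to 0.979 when a sample was left out. With scaling by library totals, the list members called higher in DNL against WT numbered 2 instead of 5 for glypicans, 3 instead of 6 for DLK1 and Notch, 0 instead of 2 for let-7 processing and 1 instead of 6 for m6A genes, and those called lower 11 instead of 6 for let-7 processing and 4 instead of 1 for m6A genes. In DNL against OA it gave 1 instead of 4 higher and 11 instead of 7 lower for let-7 processing, 2 instead of 4 higher for let-7 targets, 2 instead of 5 higher for m6A genes and 2 instead of 1 lower for imprinted genes, as did the fit without the filter for the last. Single samples left out lowered 3 of these list counts to 3 (glypicans, DLK1 and Notch, and m6A, higher in DNL against WT), that of let-7 processing to 1, and that of let-7 processing lower in DNL against OA to 3, and raised that of m6A genes lower in DNL against WT to 2. Why these values changed was not tested.

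Same-numbered samples of different groups had correlations of their deviations between -0.018 and 0.053, so the numbers were not taken to pair them. With the replicate number as a block, 7245, 8099 and 8472 genes were called against 7342, 8188 and 8557, and no call of the 8 genes changed. For genes other than the 8, alternatives are reported only for the comparisons in which the naming rule takes them, a scope narrowed after a wider run had been seen. Among the listed genes outside that scope, 5 of 147 called and 45 of 97 uncalled gene and comparison pairs changed sign under some alternative. Of the 147 called pairs 44 lost the call, and 43 of the 97 uncalled pairs gained one. Of 105 called pairs within it, 0 changed sign and 12 lost the call. Most changes against WT that the report gives for such genes outside that scope kept their direction and call in all 16 alternatives. Examples are FURIN, HEY1 and NRARP in OA and GOLM1 in DNL. The exceptions were HNF4A, HES1, HEY1 and NRARP in DNL, which kept their direction and were called in 14, 11, 14 and 12 of the 16. Depth limits what can be said of LIN28A, whose group means were 0.584 to 1.30 CPM, and of AFM and GC, which were not tested.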
